A study of Mus musculus with 24 samples.

Results

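The nuclear genes of oxidative phosphorylation were followed in mouse natural killer (NK) cells with and without FcRγ, the signalling adaptor chain encoded by Fcer1g. Members were taken by name: every protein-coding row whose symbol begins with one of the roots Nduf (followed by a, b, c, s or v), Sdh (a to d), Uqcr, Cox4 to Cox8, or Atp5. This gave 94 of 22668 protein-coding genes in a table of 38215 rows. By complex, as the name roots assign them, they were 44 genes of complex I, 6 of complex II, 8 of complex III, 18 of complex IV and 18 of complex V. By role they were 75 structural subunits, 10 assembly factors that share the names (Ndufaf1 to Ndufaf6, Sdhaf1, Sdhaf2, Atp5s and Atp5sl), 8 isoforms known from particular tissues, and the processed copy Atp5l-ps1.

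Messenger RNA was sequenced from 24 bulk libraries in 6 groups of 4. Spleen NK cells were wild type (WT) or FcRγ knockout (KO), and naive or treated with IL-15, the cytokine that NK cells need for survival and growth. The other 2 groups, WT and KO, were NK cells isolated from lung carrying tumour, and their treatment label also reads naive. The labels call the 4 samples of each group biological replicates. They do not give strain, age, sex, the allele, the IL-15 dose or route, the tumour, or whether a sample is 1 animal, so p-values measure the spread between these samples. There was no tumour-free lung group, so tissue and tumour cannot be told apart.

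Complex I (NADH dehydrogenase) and complex II (succinate dehydrogenase) pass electrons from NADH and succinate to ubiquinone. Complex III (cytochrome bc1) passes them on to cytochrome c, and complex IV (cytochrome c oxidase) to oxygen. Complexes I, III and IV pump protons across the inner mitochondrial membrane, and complex V (ATP synthase) uses the gradient to make ATP. Most subunits are encoded in the nucleus, a few in mitochondrial DNA, and complex II is wholly nuclear. Activated NK cells are known to raise both glycolysis and respiration.

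Nuclear respiratory genes are known for promoters with sites for NRF1, for GABP and other ETS factors, and for YY1, so upstream stretches that hold such letters are shown before the values. Windows from 250 bases before to 50 bases after the RefSeq start site (GRCm38.p6) were matched for 77 members, 3 of them by an older symbol, and searched on both strands. The NRF1 letters, GCGCA and GCGC with any base between them, were present for 19 of the 77 members (24.7%) and for 5.19% of 27025 genes with a window. The letters CCGGAAG (ETS) were present for 19 members (24.7%) against 9.93% of genes, and AANATGGCG (YY1) for 12 (15.6%) against 2.76%. At least 1 of the 3 was found for 43 members (55.8%) and 15.9% of genes. The genes compared were all RefSeq genes with a window, expressed here or not, and were not matched for base content. A match is a description of letters and not of bound factor, and the motifs overlap no other motif in the stretches printed here. The first 3 stretches belong to members that were lower in naive KO cells and, in WT cells, under IL-15. The other 3 belong to members that were not lower in both. Each is written 5′ to 3′ on the strand of its gene, with the motif in capitals.
Ndufb6, chr4:40279637-40279663, minus strand, 242 to 216 bases before the start, ETS letters read on the other strand: cgtccttgttCTTCCGGtcccctcccc
Ndufs5, chr4:123718265-123718294, minus strand, 108 to 79 bases before, NRF1: gctgcttgctGCGCAGGCGCagacccgctg
Atp5l, chr9:44920938-44920964, minus strand, 222 to 196 bases before, ETS letters read on the other strand: cttcaccgatCTTCCGGaccaacatga
Uqcr11, chr10:80406871-80406897, minus strand, 76 to 50 bases before, ETS: tctctcctccCCGGAAGtagatgtcaa
Ndufaf4, chr4:24897960-24897989, plus strand, 123 to 94 bases before, NRF1: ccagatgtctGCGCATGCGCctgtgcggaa
Ndufa11, chr17:56717692-56717721, plus strand, 70 to 41 bases before, NRF1: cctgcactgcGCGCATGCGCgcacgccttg
These stretches were picked as examples from members with a match. Whether matches were more frequent among members that fell was not tested.

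Libraries held 9683382 to 32095383 counts, and the shallowest were KO naive replicate 1 and WT lung replicate 1 (9774684). Fcer1g fell from 730 ± 78.8 to 3.77 ± 2.37 CPM in naive KO cells (counts scaled to a common normalized library total, mean ± SD, n = 4), from 274 ± 31.7 to 5.65 ± 1.84 in IL-15-treated cells, and from 595 ± 115 to 14.3 ± 1.61 in tumour-bearing lung. The 6 NK marker genes were expressed in all groups. Their summed level was 15226 to 17158 CPM in WT naive libraries and 11832 to 14447 CPM in KO naive libraries. It was lower under IL-15, at 5763 to 6807 CPM (WT) and 5058 to 5740 CPM (KO). In lung it was 9530 to 13401 CPM (WT) and 8510 to 9948 CPM (KO). T cell markers summed to 22.3 to 30.3 CPM in WT naive and 44.7 to 72.1 CPM in KO naive libraries (7 genes, Cd8b1 at 0 in both), and B cell markers to 6.81 to 13.3 and 14 to 28.6 CPM (6 genes, Pax5 at 0 in KO). Lung libraries carried macrophage and monocyte markers at 55.5 to 130 CPM (WT) and 147 to 622 CPM (KO) and lung epithelial markers at 14.1 to 63.7 and 23 to 406 CPM, against at most 27.1 and 6.36 CPM in any spleen library. The part of these cells in the results below was not tested. In bulk RNA, fewer cells of a type and less RNA per cell cannot be told apart.

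A pair of libraries stood apart in the members themselves. WT IL-15 replicate 2 lay above its group mean in 82 of 89 members, with a median log2 deviation of 0.53, and WT lung replicate 1 in 83 of 89, with 0.61. Both also had higher levels of other genes with exons under 1 kb in all (0.26 and 0.41) and lower levels of genes of 5 kb and over (-0.20 and -0.21). The counts, medians and sums that rest on them are given with and without them below.

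**Figure D1:**
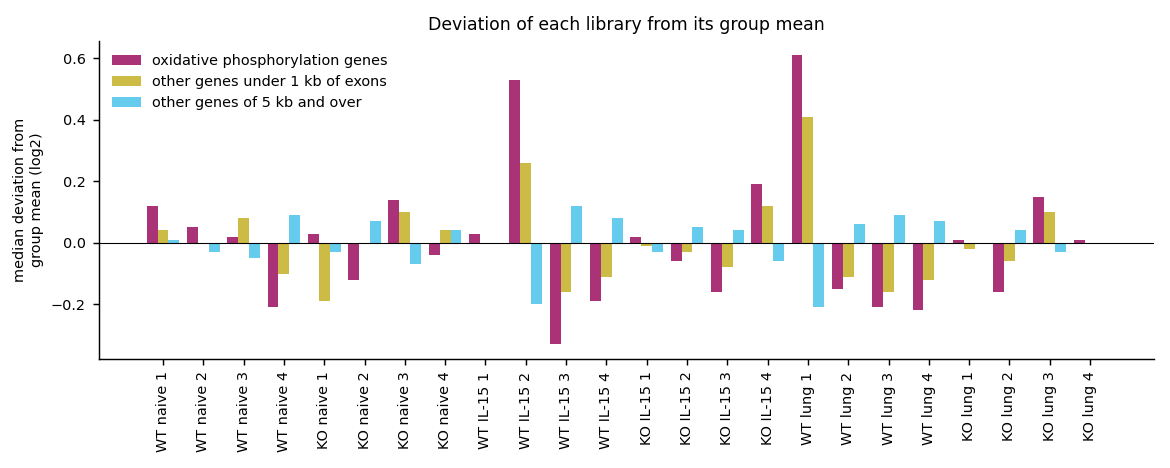
Median log2 deviation of each of the 24 libraries from its group mean, for the members, for other genes under 1 kb and for other genes of 5 kb and over. WT IL-15 replicate 2 (0.53) and WT lung replicate 1 (0.61) lie highest for the members.

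Levels between genes were compared per length, as TPM, in which counts are divided by the summed exon length of the gene and scaled to the same total in every library. Among structural subunits the highest mean TPM over all libraries was 656 for Cox8a, a small subunit of complex IV, followed in that complex by 634 for Cox7a2l, known as a supercomplex factor, and 600 for Cox4i1, the regulatory subunit. In complex V Atp5a1 (alpha subunit) had 603 TPM and Atp5b (beta) 433. Uqcrh, the hinge protein, led complex III with 456 TPM. Ndufa2 had the highest value in complex I (363 TPM), and Sdhd, a membrane anchor, in complex II (182 TPM, beside 136 for Sdha, the flavoprotein). The lowest subunits of complex I were Ndufb2 (8.89 TPM), Ndufab1 (9.11) and Ndufb4 (11.7). The leaders depended on the scale of length except in complex III. With the median length of coding transcripts in place of all exons, Cox4i1 (700 TPM) lay above Cox7a2l (475) and Cox8a (415), and Atp5e, the epsilon subunit (751), above Atp5b (534) and Atp5a1 (410). On that scale Ndufa4 (305 TPM) lay above Ndufa2 (204), Sdha (173) above Sdhd (101), and Ndufab1 moved to 35.4 TPM.

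Isoform pairs were far apart. Cox4i1 stood at 600 TPM and Cox4i2, its counterpart in lung and in low oxygen, at 0.449. Cox6a1, the general form, had 536 TPM and the heart and muscle form Cox6a2 6.19. Cox6b1 had 436 TPM and the testis form Cox6b2 0.773. For the subunit 7a forms the values were 189 TPM for Cox7a2 and 1.51 for the muscle form Cox7a1. Ndufa4, a subunit now assigned to complex IV, had 180 TPM against 0.224 for Ndufa4l2. The 3 genes for subunit c of ATP synthase were led by Atp5g3 (249 TPM), above Atp5g2 (36.3) and Atp5g1 (24.7). Cox7b2 and Cox8c were at 0 counts in all 24 libraries, and Cox8b reached at most 3 counts in a library.

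Summed over all members, the level in CPM was highest in WT naive cells. Replicates 1 to 4 had 11940, 11679, 11668 and 10084 CPM in WT naive cells and 9854, 8058, 9788 and 8257 in KO naive cells. The groups did not overlap, and the KO mean (8989 ± 964 CPM, SD, n = 4) was 20.8% below the WT mean (11343 ± 849). Under IL-15 the WT libraries had 8169, 10944, 6232 and 7058 CPM and the KO libraries 7471, 7002, 6417 and 8249, which overlap. In lung they were 12475, 7648, 7484 and 7225 CPM for WT and 7522, 6826, 8385 and 7579 for KO, again overlapping. The KO means were 10.1% below WT under IL-15 and 13% below in lung, but 1.84% and 1.69% above WT without WT IL-15 replicate 2 and WT lung replicate 1. As a share of all counts the members' group medians ran from 0.708% in KO lung to 1.098% in WT naive cells.

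The size of the naive difference depended on the unit. As summed TPM the naive KO mean was 9.23% below WT (13170 ± 3007 against 14509 ± 847) and the groups overlapped. The CPM sum was 28.6% lower in WT cells under IL-15 than in naive ones, the TPM sum 6.63% lower, and both overlapped. Without WT IL-15 replicate 2 the CPM sum was 36.9% lower, and the lung sum in WT cells, 23.2% lower than in naive cells, was 34.3% lower without WT lung replicate 1, each then with no overlap. By complex, the naive KO sums in CPM were 25.9% lower for complex IV, 20% for V and 13.2% for II, each with no overlap. They were 19.6% lower for I and 20.7% for III, with overlap. In TPM the naive KO and WT sums overlapped for every complex. The KO sums in TPM were 13.2% lower for IV, 5.79% for V, 1.6% for II, 8.98% for I and 9.41% for III. The complex II sum in CPM also did not overlap between IL-15 and naive libraries (27.2% lower in WT, 21.1% in KO), but in TPM it overlapped and was 3.55% and 1.98% higher. Between lung and naive spleen it did not overlap in either unit (29.5% and 27.8% lower in CPM, 20.6% and 32.3% in TPM).

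**Figure D2:**
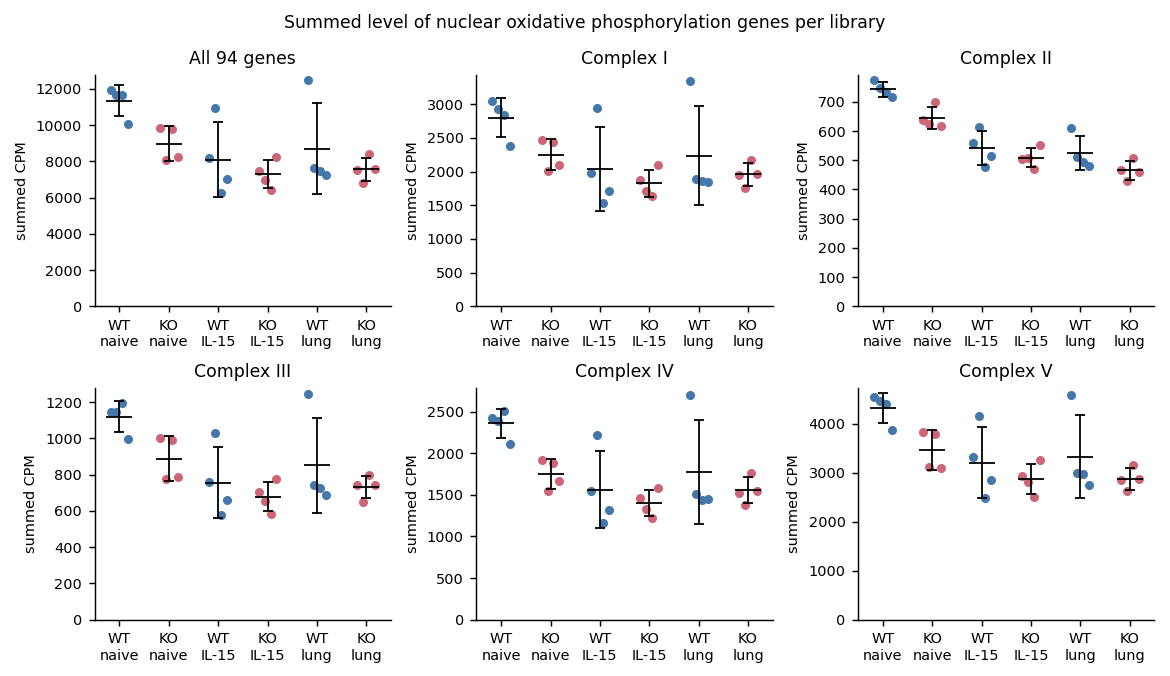
Summed CPM of all members and of complexes I to V in every library, by group, with mean ± SD (n = 4). The 4 KO naive libraries lie below the 4 WT naive libraries for all members (8058 to 9854 against 10084 to 11940 CPM), and WT IL-15 replicate 2 and WT lung replicate 1 lie above the other libraries of their groups.

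The knockout was compared with WT in naive spleen cells first. After a filter on low counts 88 of the 94 members could be tested, and 28 fell in KO cells while none rose (edgeR quasi-likelihood test, adjusted p under 0.05). Over all 13344 genes tested, 9.22% were lower and 11.1% higher by the same rule, and 31.8% of the members were lower. The median log2 change of the members was -0.39, against 0.00 for all genes, and 82 of 88 had a negative sign. Some genes of every complex fell: 11 of 43 tested in complex I, 2 of 6 in II, 1 of 8 in III, 7 of 14 in IV and 7 of 17 in V. The count depended on single libraries: it was 15, 12 and 13 without WT naive replicates 1, 2 and 3, and 16, 14 and 18 without KO naive replicates 1, 2 and 4. With a correction for gene length and GC content it was 12, and 11 with the replicate number as a block beside that correction. A total of 9 genes were lower with any of the 8 libraries left out: Ndufa9, Ndufb2, Ndufb6, Sdhaf2, Cox7a2, Cox7b, Cox8a, Atp5c1 and Atp5l.

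Within complex I, as taken by name, the genes that fell were accessory subunits, which surround the catalytic core, and Ndufa4, now assigned to complex IV. Ndufb6, of the membrane arm, had 45.3, 41.8, 43.1 and 40.1 CPM in the WT naive libraries and 14.8, 21.9, 28.3 and 24.5 in the KO naive libraries. The groups did not overlap and the log2 change was -0.94 ± 0.20 (SE, adjusted p = 0.00333). Ndufa9, an accessory subunit at the junction of the arms, had 107, 101, 106 and 95.4 CPM in WT and 62.3, 68.7, 78.6 and 71.2 in KO. All KO values lay below all WT values (-0.57 ± 0.13, adjusted p = 0.00551). Ndufb2 fell by 0.73 ± 0.20 on the log2 scale (adjusted p = 0.0154). Ndufb8, a subunit widely used as a marker of complex I, fell by 0.51 ± 0.17 (adjusted p = 0.0377), a call lost without WT naive replicates 1, 2 or 3 or KO naive replicates 1, 2 or 4 (adjusted p up to 0.0925). Ndufs4, another accessory subunit, fell by 0.52 ± 0.16 (adjusted p = 0.0246), a call lost without WT naive replicates 1 or 2 or KO naive replicate 2 (adjusted p up to 0.0703). Of the 7 nuclear core subunits, which carry the flavin and iron-sulphur clusters, none passed the test and their median was -0.18, beside -0.40 for the other subunits, of which 11 of 30 fell. The 30 include Ndufa4 by its name, and their difference from the core subunits was not tested. Ndufs1, the largest core subunit, had 64.8 to 78.9 CPM in WT and 63.2 to 106 in KO (0.16 ± 0.13, adjusted p = 0.379), and Ndufv1, the flavoprotein, 81.1 to 97.6 and 77.4 to 138 (0.15 ± 0.18, adjusted p = 0.607).

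Of the smaller complexes, 2 of 6 genes fell in complex II and 1 of 8 in complex III. Sdhaf2, which inserts the flavin into Sdha, had 90.7, 93.6, 103 and 98.7 CPM in WT naive and 65.2, 74.7, 81.3 and 71.4 in KO naive libraries, with no overlap (-0.43 ± 0.11, adjusted p = 0.0111). Sdhd fell by 0.40 ± 0.13 (adjusted p = 0.0392), and its call ended without WT naive replicates 2, 3 or 4 or KO naive replicates 1 or 4 (adjusted p up to 0.0955). The iron-sulphur subunit Sdhb had 98.9 ± 9.29 CPM in WT and 86.3 ± 14.5 in KO and did not pass the test (-0.22 ± 0.17, adjusted p = 0.365). Uqcrc2, a core protein of complex III, had 165, 168, 180 and 179 CPM in WT and 127, 157, 147 and 138 in KO. Its groups did not overlap, yet the call (-0.31 ± 0.10, adjusted p = 0.036) ended without any of those same 5 libraries, with an adjusted p of up to 0.084. With the length and GC correction its change was 0.03.

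Complex IV had the largest share of genes that fell, and all but the scarce Cox7a1 were small structural subunits or Cox7a2l. Cox7a2 had 96.1, 84.9, 93.6 and 77.3 CPM in WT naive and 47.8, 56.8, 67.4 and 53.8 in KO naive libraries. The groups were separate (-0.66 ± 0.15, adjusted p = 0.00447). Cox8a had 211, 226, 227 and 228 CPM in WT and 115, 159, 154 and 187 in KO, again separate (-0.56 ± 0.14, adjusted p = 0.00809). Cox7b fell by 0.69 ± 0.19 (adjusted p = 0.0178). Cox7c, whose counts are not whole because reads map to other genes as well, fell by 0.74 ± 0.21 (adjusted p = 0.0194), a call that ended without WT naive replicate 1 or KO naive replicate 1 (adjusted p up to 0.0527). Cox5a, which binds the matrix side of the core, did not pass the test (-0.30 ± 0.18, adjusted p = 0.251). Cox7a1 held 48 counts in WT naive libraries together and 5 in KO naive ones, and 4 of the 5 libraries with a count were WT.

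In complex V the gamma subunit led. Atp5c1, the rotor shaft, had 199, 213, 247 and 224 CPM in WT naive and 126, 151, 157 and 141 in KO naive libraries, with no overlap (-0.64 ± 0.12, adjusted p = 0.00134). Atp5l, subunit g of the membrane part, fell by 0.78 ± 0.21 (adjusted p = 0.0146), and its counts are likewise not whole. Atp5b had 919, 944, 922 and 890 CPM in WT and 723, 744, 797 and 670 in KO. These did not overlap, but the call (-0.35 ± 0.10, adjusted p = 0.022) ended without WT naive replicate 2 or KO naive replicate 4 (adjusted p up to 0.061). Atp5j, coupling factor 6, fell by 0.56 ± 0.16 (adjusted p = 0.0218), and its call ended without WT naive replicate 3 or KO naive replicates 1 or 2 (adjusted p up to 0.0589). The alpha subunit Atp5a1 had 1008, 1054, 996 and 964 CPM in WT and 1033, 793, 898 and 755 in KO, which overlap (-0.24 ± 0.12, adjusted p = 0.161).

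The length and GC correction ended several of these naive calls. Ndufb2 was then at -0.62 (adjusted p = 0.062), Ndufb8 at -0.33, Ndufs4 at -0.15, Sdhd at -0.03, Cox7b at -0.10, Cox7c at -0.03 and Atp5l at -0.62 (adjusted p = 0.0862), while Cox5a turned to 0.21. Of those still called, Ndufa9 was at -0.30, Ndufb6 at -0.43, Cox7a2 at -0.32 and Atp5c1 at -0.41. Atp5a1 passed only with the correction (-0.33, adjusted p = 0.0234).

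**Figure D3:**
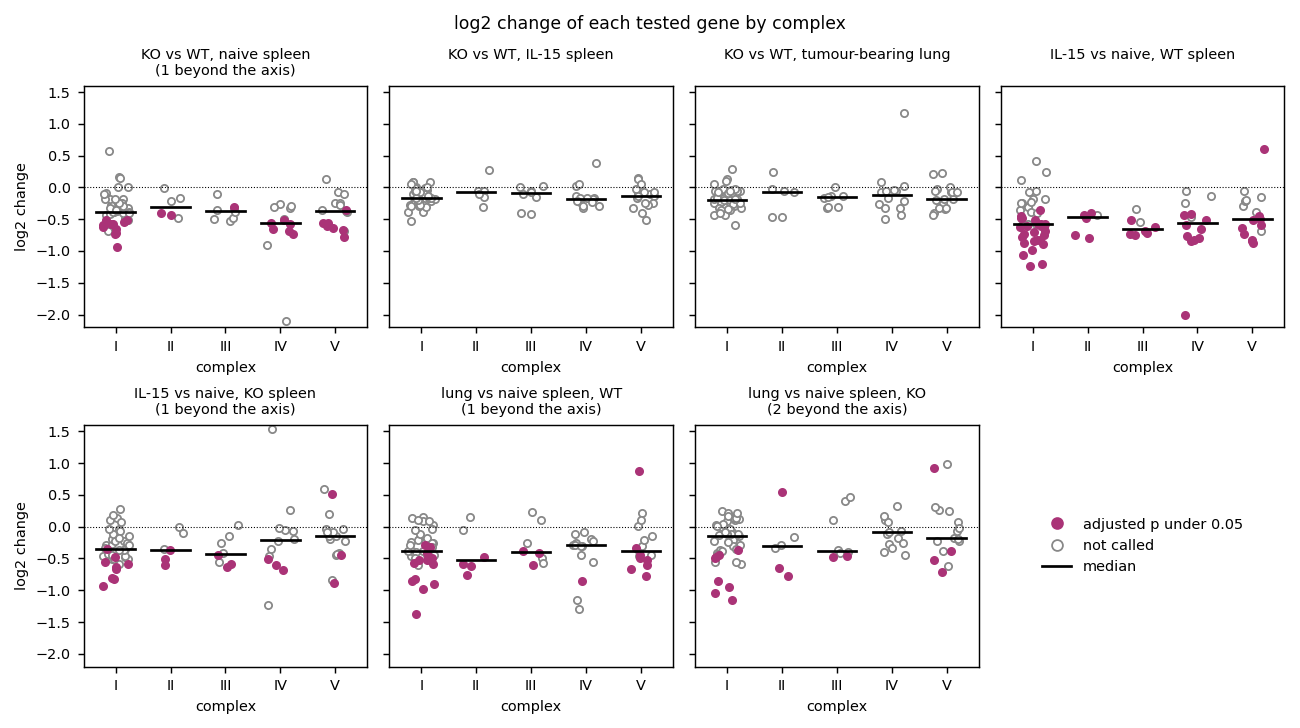
Log2 change of every tested member by complex in 7 comparisons. Filled points passed adjusted p under 0.05 and bars are medians. In naive spleen 82 of 88 members lie below 0 in KO cells, and 28 are filled. None is filled for KO against WT under IL-15 or in lung, where 0.135% and 0.625% of all genes passed.

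Under IL-15 and in lung edgeR called none of the members for KO against WT. Few genes of any kind were called there, so a count of 0 lies near the share of all genes. Under IL-15, 0 of 88 passed in either direction, against 0.135% of all genes. A single gene, Atp5f1, was lower at an unadjusted p under 0.05, and DESeq2 called 0. The median was -0.15 (all genes -0.01), with 75 of 88 signs negative. In lung 0 of 88 passed, against 0.625% of 13129 genes. At an unadjusted p under 0.05, 8 were lower, among them Atp5f1, Cox6a1, Ndufb6 and Sdhb, and DESeq2 called 0. The lung median was -0.18 (all genes 0.00), with 76 negative signs. Both medians turned with a single library: the IL-15 median was 0.07 without WT IL-15 replicate 2, and the lung median 0.06 without WT lung replicate 1. They were -0.25 without WT IL-15 replicate 3 and -0.26 without WT lung replicate 3. Without WT lung replicate 1 Ndufv3 (0.48 ± 0.11, adjusted p = 0.0321) and Uqcrq (0.44 ± 0.11, adjusted p = 0.0415) were higher in KO lung cells. These 2 of 89 members lay near the share of all genes in that fit, 1.87% higher. Of the reference subunits of the 5 complexes, Ndufb8, Sdhb, Uqcrc2, Cox5a and Atp5a1, the log2 changes under IL-15 were -0.25 ± 0.17, -0.15 ± 0.17, -0.06 ± 0.10, -0.23 ± 0.18 and -0.10 ± 0.12. In lung they were -0.19 ± 0.15, -0.47 ± 0.18, -0.15 ± 0.13, -0.33 ± 0.18 and -0.20 ± 0.11. Without WT IL-15 replicate 2 the same 5 were at -0.01, 0.04, -0.04, 0.03 and -0.05 under IL-15, and without WT lung replicate 1 at -0.04, -0.24, -0.07, -0.10 and -0.12 in lung.

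Whether the knockout difference itself differed between states was tested as an interaction. No member passed for IL-15 against naive by edgeR (1.54% of all genes did), and 8 had an unadjusted p under 0.05, all with an interaction above 0. Under IL-15 their KO means were below, at or above the WT means: Atp5c1 had 138 CPM in KO and 151 in WT cells, Ndufb2 19.3 in both, and Cox8a 138 and 131. Cox7a1, one of the 8, had 0.62 and 0.47 CPM. DESeq2 called 3 of them higher: Cox7a2 (0.66), Cox8a (0.61) and Ndufb6 (0.93). For Cox7a2 the KO libraries under IL-15 had 65.8, 72.6, 64.9 and 81.9 CPM and the WT libraries 68.3, 89.6, 63.1 and 58. These overlap, unlike the naive libraries, and the interaction was 0.68 ± 0.21 (edgeR adjusted p = 0.102). Without WT IL-15 replicate 2, edgeR called 10 of 88, all higher: Ndufa3, Ndufa9, Ndufb2, Ndufb6, Ndufs6, Uqcrq, Cox7a2, Cox8a, Atp5c1 and Atp5k. Of all genes in that fit 2.22% were higher and 3.05% lower. For lung against naive spleen no member passed either (1.15% of all genes), 5 had an unadjusted p under 0.05 and DESeq2 called 1, Atp5c1 (0.53). Without WT lung replicate 1, edgeR called 5 of 90, all higher: Ndufa9, Cox7a2, Cox7a2l, Cox8a and Atp5c1. Of all genes in that fit 1.1% were higher and 2.82% lower.

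IL-15 treatment was compared with the naive state within each genotype. In WT cells 56 of 88 members fell and 1, Atp5sl, rose, against 26% and 26.4% of all genes. The median was -0.57, beside -0.01 for all genes, and 84 of 88 signs were negative. All complexes took part: 26 of 43 genes fell in complex I, 5 of 6 in II, 6 of 8 in III, 10 of 14 in IV and 9 of 17 in V. The count was 76 without WT IL-15 replicate 2, where 27.2% of all genes were lower, and 37 without WT IL-15 replicate 3. It was 37 with the length and GC correction, and the median was then -0.28. In KO cells 20 fell and 2 rose (21% and 20.7% of all genes), with a median of -0.31 beside -0.01. The KO share lower, 22.7% of the members, lay near that of all genes. The lower count was 12 without KO naive replicate 3, 12 without KO IL-15 replicate 2 and 10 without KO IL-15 replicate 3. Of the members that fell, 19 did so in both genotypes, 33.9% of the WT list and 95% of the KO list. As 63.6% of the tested members fell in WT cells, a large overlap is likely for any KO list. The same overlap over all genes is not given here.

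Ndufa4 changed most among the abundant members. It had 192, 181, 157 and 137 CPM in WT naive cells and 72.4, 111, 58.7 and 57.1 under IL-15, without overlap (-1.24 ± 0.19, adjusted p = 2.27e-05). In KO cells it went from 111, 112, 120 and 111 to 50.2, 62.2, 58.1 and 79.0 CPM (-0.93 ± 0.19, adjusted p = 5.81e-04). By its name Ndufa4 is counted in complex I here. Complex I genes that fell in WT cells were Ndufa1 (-1.20 ± 0.22), Ndufa3 (-1.07 ± 0.18) and Ndufa9 (-0.75 ± 0.13), among others. In KO cells Ndufa3 (-0.67 ± 0.18) and the assembly factor Ndufaf3 (-0.82 ± 0.24) fell, as did Ndufa13 (-0.80 ± 0.27, adjusted p = 0.0208), whose call ended without KO naive replicate 1 or KO IL-15 replicates 2 or 3 (adjusted p up to 0.0672). Ndufb8 fell in WT cells (-0.45 ± 0.17, adjusted p = 0.0297), a call lost without WT naive replicates 1 or 2 or WT IL-15 replicates 1, 3 or 4 (adjusted p up to 0.108).

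In complex II 5 of 6 genes fell in WT cells and 3 of 6 in KO cells. Sdha, the catalytic flavoprotein, had 299, 287, 260 and 273 CPM in WT naive and 222, 213, 200 and 218 in WT IL-15 libraries. In KO cells it had 254, 284, 294 and 297 naive and 183, 211, 208 and 228 under IL-15. Neither pair overlapped, and the changes were -0.48 ± 0.09 (adjusted p = 3.43e-04) and -0.51 ± 0.09 (adjusted p = 2.52e-04). As TPM the mean of Sdha went from 143 ± 11.1 to 151 ± 15.6 in WT cells, not lower, and from 167 ± 11.6 to 151 ± 8.33 in KO cells. Sdhaf2 fell by 0.75 ± 0.11 in WT and 0.37 ± 0.11 in KO cells. Sdhc, a membrane anchor, fell by 0.79 ± 0.20 in WT and 0.61 ± 0.20 in KO cells, where the call ended without KO naive replicates 1 or 3 or KO IL-15 replicates 2 or 3 (adjusted p up to 0.0925). Sdhd fell in WT cells by 0.40 (adjusted p 0.0583 without WT IL-15 replicate 4), but with the length and GC correction its change was 0.06. Sdhb fell in WT cells by 0.43 ± 0.17 (adjusted p = 0.038). The Sdhb call was lost without WT naive replicates 1, 2 or 3 or WT IL-15 replicates 1, 3 or 4 (adjusted p up to 0.133), and in KO cells it did not pass (-0.35, adjusted p = 0.101).

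The core proteins of complex III fell in both genotypes. Uqcrc2 had 120, 115, 111 and 109 CPM in WT IL-15 libraries, below all 4 WT naive values (-0.69 ± 0.10, adjusted p = 1.3e-05). In KO IL-15 libraries it had 103, 123, 98.6 and 114 CPM, below all 4 KO naive values (-0.45 ± 0.10, adjusted p = 0.0015). With the length and GC correction both were at -0.33 and passed (adjusted p = 0.00223 in WT and 0.00278 in KO cells). Uqcrc1 fell by 0.71 ± 0.12 in WT and 0.59 ± 0.12 in KO cells, and the small subunit Uqcrq by 0.75 ± 0.20 in WT cells. The Rieske protein Uqcrfs1 fell in WT cells (-0.51 ± 0.16, adjusted p 0.0528 without WT IL-15 replicate 3). Uqcrh fell in KO cells (-0.63 ± 0.24, adjusted p = 0.0392), a call lost without KO naive replicates 1 or 3 or KO IL-15 replicates 1, 2 or 3 (adjusted p up to 0.113).

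In complex IV 10 of 14 tested genes fell in WT cells and 3 in KO cells, and in complex V 9 and 2 of 17. Cox7a2l had 536, 589, 659 and 542 CPM in WT naive and 352, 487, 261 and 319 in WT IL-15 libraries, with no overlap (-0.80 ± 0.15, adjusted p = 2.89e-04), and fell by 0.51 ± 0.15 in KO cells. Cox4i1 fell by 0.77 ± 0.17 in WT and 0.60 ± 0.17 in KO cells, and Cox8a by 0.85 ± 0.14 in WT cells. Cox5a did not pass in either genotype (-0.14 ± 0.18 and -0.07 ± 0.18). Cox6a1 fell in KO cells (-0.68 ± 0.25, adjusted p = 0.0361), which ended without KO naive replicates 1 or 3 or KO IL-15 replicates 2 or 3 (adjusted p up to 0.156). Atp5a1 had 771, 768, 607 and 693 CPM in WT and 699, 679, 570 and 715 in KO cells under IL-15, below every naive library of its genotype (-0.59 ± 0.12, adjusted p = 3.7e-04, and -0.45 ± 0.12, adjusted p = 0.00442). Atp5b, Atp5c1 and Atp5k, subunit e, fell in WT cells by 0.45 ± 0.10, 0.64 ± 0.12 and 0.87 ± 0.18. As TPM their WT means went from 457 ± 18.1 to 489 ± 35.2, from 243 ± 21.3 to 230 ± 13.4 and from 195 ± 21.2 to 154 ± 28.7. In that unit Atp5b was thus not lower. In KO cells Atp5b did not pass (-0.19, adjusted p = 0.153), and Atp5d, Atp5e, Atp5f1 and Atp5g3 passed in neither genotype. Atp5h, subunit d, fell in KO cells (-0.88 ± 0.27, adjusted p = 0.0151), which ended without KO naive replicate 1 or KO IL-15 replicate 3 (adjusted p up to 0.0631).

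With the length and GC correction the WT calls under IL-15 also ended for Ndufb8 (-0.27), Sdhb (-0.24) and Uqcrfs1 (-0.09), and Cox5a turned to 0.37. Calls that were made again had smaller changes, such as -0.59 for Ndufa4, -0.57 for Ndufa1, -0.67 for Ndufa3, -0.44 for Ndufa9, -0.44 for Uqcrq, -0.41 for Cox7a2l, -0.54 for Cox8a, -0.30 for Atp5c1 and -0.51 for Atp5k. In KO cells Cox6a1 was at -0.41 and still called. Without WT IL-15 replicate 2 Cox5a passed in WT cells (-0.39, adjusted p = 0.0275) and Ndufb8 was at -0.68.

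**Figure D4:**
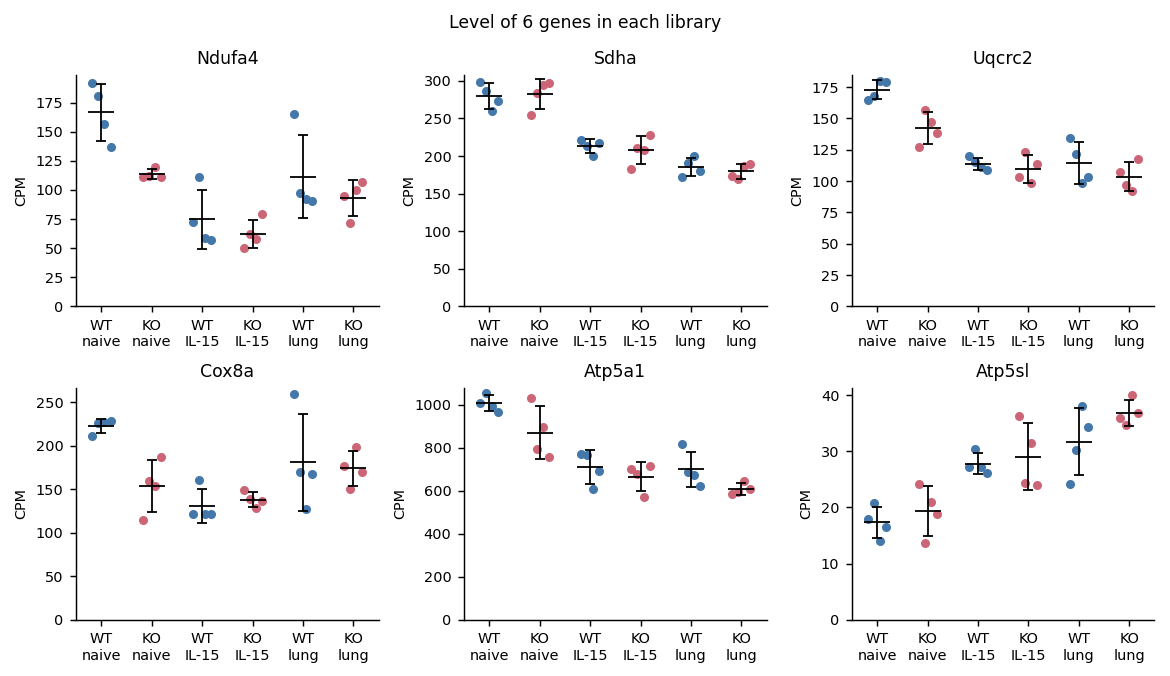
CPM of Ndufa4, Sdha, Uqcrc2, Cox8a, Atp5a1 and Atp5sl in every library, by group, with mean ± SD (n = 4). Sdha and Uqcrc2 are lower in all IL-15 and lung libraries than in naive libraries of the same genotype, while Atp5sl lies higher there in WT cells.

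Atp5sl went the other way. It is counted in complex V by its name but is known for a part in complex I assembly. It had 17.9, 20.8, 14.1 and 16.5 CPM in WT naive cells, 27.2, 30.5, 27.2 and 26.2 with IL-15 treatment, and 24.2, 30.2, 38.1 and 34.4 in lung. Both WT contrasts were free of overlap (0.60 ± 0.18, adjusted p = 0.00857, and 0.88 ± 0.17, adjusted p = 1.19e-04). In KO cells it had 24.1, 13.6, 21 and 18.8 CPM naive, 36.3, 24.4, 31.5 and 24.0 with IL-15 treatment, and 35.9, 34.7, 40.0 and 36.8 in lung. The lung rise in KO cells was 0.93 ± 0.17 (adjusted p = 8.44e-05). The IL-15 rise in KO cells (0.52 ± 0.18, adjusted p = 0.0242) ended without KO naive replicate 2 or KO IL-15 replicates 1 or 3 (adjusted p up to 0.0989).

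Lung NK cells were compared with naive spleen NK cells of the same genotype. In WT cells 29 of 89 members fell and 2 rose, against 20% and 29.2% of 14275 genes, and the median was -0.38 (all genes 0.08). In KO cells 15 fell and 3 rose, against 18.1% and 24.3%, and the median was -0.18 (all genes 0.05). The KO share lower, 15 of 89, lay near that of all genes. Among the risers in both genotypes was Cox4i2, at 0 counts in all spleen libraries. It could pass the filter on low counts only through lung libraries, so its direction was fixed in advance. The WT lower count was 65 without WT lung replicate 1, where 22.2% of all genes were lower. It was 19 without WT lung replicate 3 or 4. The KO lower count was 23 when only these 8 libraries were fitted, and the higher count was 13 with the length and GC correction. Both genotypes shared 14 lower members, 48.3% of the WT list and 93.3% of the KO list. Of all tested members 32.6% fell in WT cells, and the same overlap over all genes is not given here. By complex, 14 of 43 fell in complex I in WT cells and 8 in KO, 4 and 2 of 6 in II, 3 and 2 of 8 in III, 1 and 0 of 15 in IV, and 7 and 3 of 17 in V. Without WT lung replicate 1 the WT counts were 32 in complex I, 4 in II, 6 in III, 10 in IV and 13 in V.

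The largest change in lung among members above 5 CPM was that of Ndufaf1, a complex I assembly factor. It had 20.9, 24.4, 20.3 and 22.7 CPM in WT naive and 10.8, 6.7, 9.59 and 7.31 in WT lung libraries. The KO values were 21.5, 12.7, 17.2 and 16.3 naive and 6.91, 7.21, 4.65 and 11.5 in lung. Neither pair overlapped (-1.37 ± 0.21, adjusted p = 7.56e-06, and -1.16 ± 0.21, adjusted p = 9.54e-05). Ndufaf3 fell by 0.98 ± 0.25 in WT and by 0.95 in KO cells, and the accessory subunit Ndufb3 by 0.90 ± 0.21 and 0.86 ± 0.21. Ndufa9 fell in WT cells by 0.85 ± 0.14. In KO cells Ndufc2 fell by 1.04 ± 0.25 and the core subunit Ndufs1 by 0.50 ± 0.12. Ndufb8 fell in WT cells (-0.42 ± 0.16, adjusted p = 0.036), a call lost without WT naive replicates 1 or 2 or WT lung replicates 2, 3 or 4 (adjusted p up to 0.116), and did not pass in KO cells (-0.13, adjusted p = 0.568).

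Sdha was again lower in every lung library. It had 172, 191, 200 and 180 CPM in WT and 173, 170, 187 and 190 in KO lung cells, below all naive values (-0.59 ± 0.09, adjusted p = 5.11e-06, and -0.65 ± 0.09, adjusted p = 2.29e-06). Sdhc fell by 0.76 ± 0.20 and 0.77 ± 0.20, and in WT cells Sdhd fell by 0.62 ± 0.12 and Sdhaf2 by 0.47 ± 0.11, while Sdhb did not pass (-0.05 and -0.33). Sdhaf1, which assists the iron-sulphur subunit, rose in KO lung cells (0.55 ± 0.20, adjusted p = 0.0267), which ended without KO naive replicates 1 or 2 or KO lung replicates 2 or 3 (adjusted p up to 0.0969). Uqcrc2 had 134, 122, 98.8 and 103 CPM in WT and 107, 96.8, 92.0 and 118 in KO lung libraries, again below all naive values (-0.60 ± 0.11 and -0.46 ± 0.11). Corrected for length and GC content, both calls ended (-0.11, adjusted p = 0.309, and -0.17, adjusted p = 0.109). Uqcrc1 fell in KO cells (-0.48 ± 0.13) and in WT cells (-0.39 ± 0.13, adjusted p 0.0737 without WT lung replicate 3). Uqcrfs1 in WT cells was at the threshold (-0.41, adjusted p = 0.0497), and its call was lost without any of WT naive replicates 1, 2 and 3 and WT lung replicates 2, 3 and 4 (adjusted p up to 0.157).

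In complex IV Cox7a2l fell in WT lung cells (-0.86 ± 0.17, adjusted p = 2.08e-04), and Cox5a did not pass (-0.20 and -0.26). Cox4i2 was at 0 counts in all 16 spleen libraries. It held 0, 0.674, 0.0792 and 0.308 CPM in the WT lung libraries and 0.279, 1.33, 0.478 and 0.542 in the KO lung libraries, 26 and 64 counts in all. Against a floor of 3 counts over the naive group it was at least 11-fold higher in WT and at least 18.8-fold higher in KO lung cells. Ndufa4l2, likewise at 0 in spleen, held 29 and 31 counts, at least 12.2-fold and 9.09-fold higher. The markers of lung epithelium, macrophages and monocytes given above were higher in the same libraries, and their part in these counts was not tested. In complex V Atp5c1 fell in WT cells (158, 120, 122 and 116 CPM, below all WT naive libraries, -0.77 ± 0.12, adjusted p = 6.68e-06), as did Atp5j (-0.67 ± 0.15). Atp5a1 fell in both genotypes (-0.52 ± 0.11 each), and in KO cells so did Atp5f1, subunit b (-0.72 ± 0.18), and Atp5g2 (-0.39 ± 0.15, adjusted p = 0.036). The Atp5g2 call was lost without KO naive replicates 2 or 4 or any KO lung library (adjusted p up to 0.0878).

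With the length and GC correction the WT lung calls of Ndufb3 (-0.19), Ndufb8 (-0.15), Sdhd (-0.19) and Uqcrfs1 (-0.01) ended as well, and Cox5a was then higher (0.45, adjusted p = 0.0208). Still called were Ndufaf1 at -0.85, Ndufa9 at -0.51, Cox7a2l at -0.52 and Atp5c1 at -0.48, and in KO cells Atp5g2 at -0.76. Without WT lung replicate 1 Cox5a was lower in WT cells (-0.43, adjusted p = 0.0415) and Ndufb8 at -0.58.

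Among isoforms known from particular tissues, Cox6a2 fell and Cox7a1 rose with IL-15 in one genotype each. Cox6a2 had 3.73, 2.66, 4.98 and 3.46 CPM in WT naive and 0.839, 1.91, 0.726 and 0.477 in WT IL-15 libraries, without overlap (-2 ± 0.58, adjusted p = 0.00762). In KO cells it did not pass (-1.23 ± 0.58, adjusted p = 0.096). Its exons overlap those of Itgad on the other strand. Cox7a1 rose in KO cells under IL-15 (adjusted p = 0.0141), from 5 counts, all in KO naive replicate 4, to 77 counts over 4 libraries. The levels were 0, 0, 0 and 0.198 CPM naive and 0.526, 0.648, 0.592 and 0.714 with IL-15. Its log2 change ran from 2.86 to 7.06 with single libraries left out, so its size is not fixed by these counts.

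Subunits encoded in mitochondrial DNA number 13. In naive KO cells 0 of the 13 passed by edgeR, 0 had an unadjusted p under 0.05 and 0 passed by DESeq2, and their median was 0.09. Under IL-15, 10 of 13 fell in each genotype, with medians of -1.78 in WT and -1.76 in KO cells. The complex IV subunit mt-Co2 went from 8119 ± 1158 to 2862 ± 554 CPM in WT cells (-1.59 ± 0.37, adjusted p = 0.00138). In KO lung cells 3 of 13 were higher than in WT lung cells (mt-Co1, mt-Atp8 and mt-Nd1), with a median of 1.06, against 0.625% of all genes called, and DESeq2 called 11. Without WT lung replicate 1 edgeR called 12 higher, with a median of 1.04, where 1.87% of all genes were higher. mt-Co1 had 12645 ± 3488 and 26688 ± 3629 CPM (1.08 ± 0.19, adjusted p = 0.0279). All mitochondrial transcripts took 1.18% to 9.28% of counts in KO naive libraries, the lowest in replicate 1.

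Counts of the further lists stand beside the shares of all genes called: 9.22% lower and 11.1% higher in naive KO cells, 26% and 26.4% under IL-15 in WT cells, 21% and 20.7% in KO cells, 20% and 29.2% in WT lung and 18.1% and 24.3% in KO lung cells. Without WT IL-15 replicate 2 and without WT lung replicate 1, the WT shares lower were 27.2% under IL-15 and 22.2% in lung. Lists this short were not tested as lists. Among 35 assembly factors outside the name rule, 4 fell and none rose in naive KO cells, a share near that of all genes. They were led by Coa6, a copper chaperone of complex IV (31.7 ± 2.8 against 17.8 ± 2.02 CPM, -0.85 ± 0.17, adjusted p = 0.00221), and Coa3, which acts on Cox1 translation (-0.75 ± 0.18). IL-15 gave 11 lower (15 without WT IL-15 replicate 2) and 2 higher in WT cells and 7 lower and 2 higher in KO cells. Lung gave 13 lower in each genotype (16 in WT without WT lung replicate 1), with 3 higher in WT cells. Coa5 fell from 197 ± 16.3 to 99.1 ± 5.73 CPM in WT lung cells (-0.99 ± 0.10, adjusted p = 1.88e-08), and Taco1, an activator of Cox1 translation, by 1.56 ± 0.22 in WT and 1.53 ± 0.22 in KO lung cells. Of 3 further ATP synthase genes, none passed in WT cells under IL-15 or in lung with all libraries, and 2 and 3 were lower without WT IL-15 replicate 2 and WT lung replicate 1. Among them Atpif1, the inhibitor of ATP hydrolysis, fell in naive KO cells (-0.56 ± 0.17, adjusted p = 0.0271) and rose in KO cells under IL-15 (0.80 ± 0.17, adjusted p = 9.49e-04). Of 18 electron carriers and feeders, Cyc1, the cytochrome c1 of complex III (-0.44 ± 0.11, adjusted p = 0.011), and Etfa fell in naive KO cells. Under IL-15, 3 rose and 4 fell in WT cells and 3 rose and 3 fell in KO cells, Gpd2 falling by 0.76 ± 0.12 and 0.68 ± 0.12. In lung, 3 rose and 3 fell in each genotype.

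Of 17 genes of pyruvate dehydrogenase and the citric acid cycle, 1 (Dld, -0.38 ± 0.12) fell in naive KO cells. Under IL-15, 9 fell in WT cells and 6 in KO cells, where 1 rose. Ogdh, of the 2-oxoglutarate dehydrogenase, went from 321 ± 35.3 to 179 ± 19.5 CPM in WT cells (-0.93 ± 0.10, adjusted p = 6.82e-07). In lung 9 and 6 fell and 1 rose in each genotype. Of 13 phosphate, nucleotide and anion carriers, 3 fell and 1 rose in naive KO cells, among them Vdac3, a pore of the outer membrane (-0.64 ± 0.16), and Slc25a1, the citrate carrier (0.56 ± 0.14). Under IL-15, 4 rose and 6 fell in WT cells and 3 rose and 2 fell in KO cells, the ADP/ATP carrier Slc25a4 rising by 0.73 ± 0.14 and 0.74 ± 0.14. In lung 0 rose and 8 fell in WT cells, and 1 rose and 5 fell in KO cells.

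Of 19 regulators of mitochondrial biogenesis edgeR called 1 in naive KO cells, Polrmt, the mitochondrial RNA polymerase (0.94 ± 0.26, adjusted p = 0.0155), and DESeq2 called 4 higher. Under IL-15, 9 rose and 3 fell in WT cells, and 3 rose and 1 fell in KO cells, the KO counts being below the shares of all genes. The growth regulator Myc rose from 46.3 ± 8.21 to 158 ± 13 CPM in WT cells (1.69 ± 0.12, adjusted p = 2.83e-09) and by 1.75 ± 0.12 in KO cells, and the coactivator Pprc1 by 1.83 ± 0.22 and 1.56 ± 0.22. Tfam, which packages and transcribes mitochondrial DNA, fell in WT cells (-0.61 ± 0.13). Lung gave 6 higher and 3 lower in WT cells and 4 higher and 5 lower in KO cells. Of the 105 tested genes of these lists that are not encoded in mitochondrial DNA, edgeR and DESeq2 called 0 in KO against WT cells under IL-15 and 0 in lung. At an unadjusted p under 0.05 there was 1 (lower) under IL-15, and 5 were higher and 7 lower in lung. In the other lists and comparisons that use them, leaving out WT IL-15 replicate 2 or WT lung replicate 1 moved a count by at most 1.

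The members are short genes, with a median exon length of 1631 bp, and length moved with the result. In naive KO cells other genes had median log2 changes of -0.34 under 1 kb, -0.17 from 1 to 2 kb, -0.04 from 2 to 5 kb and 0.15 at 5 kb and over. The members had -0.53, -0.39 and -0.31 in the first 3 of these bins, and only 5 members were in the last. For IL-15 in WT cells the other genes had -0.40, -0.24, -0.07 and 0.22 and the members -0.62, -0.61 and -0.44. Other genes under 1 kb were lower by the test in 12.5% of cases in naive KO cells, and 8 of 19 members were. Mitochondrial ribosomal protein genes, a set looked at after the data were seen, fell in naive KO cells in 14 of 77 cases (median -0.35), and cytosolic ones in 30 of 82 (median -0.50). The part of length in the members' results was tested only through the correction, under which 10 of the 28 naive calls were made as well.

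**Figure D5:**
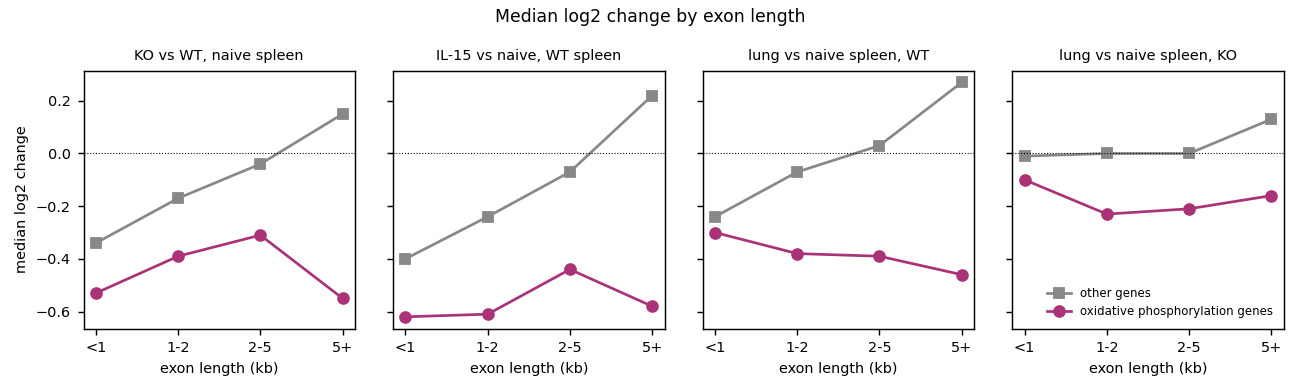
Median log2 change by summed exon length for members and for all other genes in 4 comparisons. In naive KO cells the other genes run from -0.34 under 1 kb to 0.15 at 5 kb and over, and the members lie below them in each bin.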

How the data were processed

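Poly(A) RNA from the 24 samples was made into directional libraries, per the labels' protocols. The build was GRCm38, and the tools were RSEM 1.2.30, STAR 2.5.2a and cutadapt 1.9, according to the submitters' processing notes. For the annotation release and strand setting, the sources used here give nothing. The authors deposited RSEM expected counts per gene, not normalized, which were rounded to whole numbers. Members and gene lists were chosen with earlier results of these data known.

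edgeR 4.0.16 in R 4.3.3 (limma 3.58.1) used filterByExpr, TMM factors and the quasi-likelihood test with Benjamini-Hochberg adjustment over all genes tested. KO against WT and IL-15 against naive used 16 spleen or 8 lung libraries, and lung against spleen used all 24. The size of a log2 change over the square root of its F statistic gave its standard error. DESeq2 1.42.0, other filters, scalings, subsets, a length and GC offset (spline, 5 degrees of freedom), blocks and leaving out each library were alternatives. The test was checked on simulated counts. CPM used TMM-scaled totals, and TPM the GENCODE M21 exon lengths. The members named were the 5 reference subunits, up to 4 per complex with the smallest adjusted p and at least 1 CPM, all where at most 10 passed, and those against the majority direction. From other lists up to 3 genes per comparison were named. Outside this rule, and after their values were seen, Ndufs1, Ndufv1 and Cox7a1 in naive KO cells, Sdhc, Ndufa4l2 and the members that passed only by DESeq2, at an unadjusted p or without a library were named.

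Exons of 34 members overlap another gene, 29 only on the other strand, where reads cannot be told apart unless strand was used (Ndufb6 with Smim27, Ndufa9 with 1700018A23Rik, Uqcrc2 with Pdzd9, Atp5a1 with Haus1, Cox4i1 with Emc8). Counts of 17 members were not whole in over 12 libraries, as RSEM gives where reads map to more than 1 gene, so their values are uncertain, among them Cox7a2l, Cox7c, Ndufab1, Ndufb4, Uqcrh, Atp5f1, Atp5g1, Atp5g2, Atp5h and Atp5l. Protein sequences were not used here. Some results are not reported here.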

Additional observations from a re-analysis of the deposited data

Results flagged for a closer look

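In groups of 4 libraries, a library was singled out where its gap to the nearest other library, divided by the range of the group, passed Dixon's 95% critical value. Of 66 groups of values looked at, 8 held such a library. The 66 are sums and single genes in the same 6 library groups, and the sums share genes. They are not independent, so the count of 8 cannot be set against a chance rate. Of the 8 flagged, 6 were WT lung replicate 1. Its summed level was 12475 CPM for all members (nearest library 7648), 3343 for complex I (1896), 1244 for complex III (742), 2704 for complex IV (1504) and 4575 for complex V (2995), and its Sdhb level was 142 CPM (84.5). WT naive replicate 4 had the low summed level of 10084 CPM for all members (nearest 11668). KO IL-15 replicate 4 had 62.6 CPM of Ndufb8 (nearest 49.5).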

How the results depend on the processing

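With a correction for gene length and GC content, alone and with the replicate number as a block, 12 and 11 members were lower in naive KO cells (medians -0.18 and -0.18). In WT cells under IL-15 the same settings gave 37 and 37 lower, 2 and 2 higher, and medians of -0.28 and -0.28. They gave 4 and 5 higher under IL-15 in KO cells, 7 and 8 higher in WT lung and 13 and 12 higher in KO lung cells. The replicate block alone left counts within 1.5 times of those reported, with 23 lower in naive KO cells, 56 and 19 lower under IL-15 and 29 and 15 lower in lung. Deviations of same-numbered libraries correlated between -0.19 and 0.25, both ends being KO against WT pairs under IL-15. For IL-15 against naive, libraries with the same library number correlated between -0.05 and 0.2. Such values neither show nor exclude pairing. A block on the library numbers gave 33 lower and 1 higher for IL-15 in KO cells. That fit used only KO spleen libraries whose number occurs in both the naive and the IL-15 group. A stricter filter on low counts gave 1 higher for IL-15 in KO cells and 1 for lung in WT cells, and so did fitting only the groups compared (1 and 1), which gave 23 lower in KO lung cells. DESeq2 called 3 members for the IL-15 interaction and 1 for lung. The summed TPM was 9.23% lower in naive KO cells (-9.23) and differed by -6.63% and -3.47% under IL-15 in WT and KO cells. Leaving out each library gave 12 to 26 lower in naive KO cells, 37 to 76 lower and 1 to 2 higher for IL-15 in WT cells, 10 to 25 lower and 1 to 2 higher for IL-15 in KO cells, 19 to 65 lower in WT lung cells, and 0 to 2 higher for KO against WT in lung. The interactions ranged from 0 to 10 higher (median 0.16 to 0.48) for IL-15 and from 0 to 5 (median 0.11 to 0.41) for lung. The cause of these shifts was not tested. Shares of all genes in the fits without WT IL-15 replicate 2 or WT lung replicate 1 are given above.

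Signs turned for some reference subunits. With the length and GC correction, alone and with the block, Cox5a was at 0.21 and 0.20 for KO against WT in naive spleen, 0.37 and 0.37 for IL-15 against naive in WT cells, 0.09 and 0.10 in KO cells (0.00 with all 24 libraries in 1 fit), 0.45 and 0.45 for lung against naive spleen in WT cells (adjusted p = 0.0208 and 0.0139), 0.08 and 0.10 in KO cells, and -0.28 and -0.26 for the IL-15 interaction. For KO against WT, Uqcrc2 was at 0.03 and 0.03 in naive spleen, at 0.03 and 0.03 with IL-15 treatment, and at 0.00 and 0.00 in lung, and it was at 0.00 and 0.00, then -0.06 and -0.06, for the IL-15 and lung interactions. Sdhd was at 0.06 and 0.06 for IL-15 in WT cells and Ndufb8 at 0.06 and 0.05 in KO lung against naive cells. The lung interaction of Atp5a1 was -0.01 with DESeq2, -0.01 with its size factors and 0.00 with the stricter filter, and that of Cox5a 0.01 with no filter. Without WT IL-15 replicate 2 and WT lung replicate 1, an alternative chosen after seeing the data, the summed CPM differed between KO and WT cells by 1.84% under IL-15 and 1.69% in lung, and in WT cells from naive by -36.9% and -34.3%. Leaving out libraries moved Cox5a from -0.34 to 0.03 and Sdhb from -0.26 to 0.04 for KO against WT under IL-15, Cox5a from -0.15 to 0.03 for IL-15 in KO cells, and Sdhb from -0.29 to 0.03 in WT lung cells. It moved the interactions from -0.04 to 0.36 (Cox5a) and -0.03 to 0.28 (Sdhb) for IL-15, and from -0.05 to 0.10 (Atp5a1) and -0.16 to 0.18 (Cox5a) for lung. Over 120 values of single members and 2227 alternatives, 2029 kept direction and side of the threshold, 137 lost the threshold, 5 gained it and 56 turned sign. The shallowest libraries held 9683382 and 9774684 counts, which limits the scarce isoforms most.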
